A study of Homo sapiens with 4 samples.

Results

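The nuclear genes of the mitochondrial respiratory chain were examined in U2OS cells, an established human osteosarcoma line, after knockdown of PURB, a single-stranded nucleic acid binding protein. Members were the gene symbols that begin with NDUF, UQCR or COX plus a digit, CYC1, the SDHA to SDHD genes with their assembly factors SDHAF, and the ATP5F1, ATP5M, ATP5P and ATP5I symbols. Of 290 matching symbols, 171 carried pseudogene names and were dropped, which left 119 of the 39519 genes in the table. The sh-PURB cells carried a short hairpin RNA against PURB that was switched on with doxycycline (5 µg/ml, 72 h), and the sh-NC cells received DMSO. There were 2 libraries of each, made from total RNA after removal of ribosomal RNA. Every sh-PURB library and no sh-NC library had doxycycline, a tetracycline known to inhibit mitochondrial ribosomes, so the hairpin and the drug cannot be told apart. The labels do not say whether the libraries came from separate cultures or whether both sh-PURB libraries carried the same hairpin, so p-values reflect the spread among these 4 libraries alone, which may be technical.

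The respiratory chain sits in the inner mitochondrial membrane. Complex I (NADH dehydrogenase) and complex II (succinate dehydrogenase) pass electrons to coenzyme Q, complex III passes them on to cytochrome c, and complex IV (cytochrome c oxidase) passes them to oxygen. The protons pumped on the way drive complex V, the ATP synthase. Most subunits are encoded in the nucleus, a small set in the mitochondrial genome, and dedicated assembly factors put the parts together.

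Values were TPM, a share of all transcripts scaled by length. TPM holds no trace of sequencing depth, which is therefore unknown here. Column sums lay between 977569.6 and 981061.0, and protein-coding genes held 25.3% to 26.9% of them. PURB itself measured 2.46 and 2.69 TPM in sh-PURB, against 5.29 and 6.55 TPM in sh-NC. Its difference on the log2(TPM + 1) scale was -0.95 (SE 0.174, limma adjusted p = 0.102, exact two-sided permutation p = 0.333, the smallest that 2 against 2 libraries allow). With protein-coding genes alone refitted it was -0.91 and passed the threshold of 0.05 (limma adjusted p = 0.0313). Of 9 mesenchymal or osteosarcoma markers, 7 reached 1 TPM. The sums of the 9 were 602 and 665 TPM in sh-PURB against 710 and 759 TPM in sh-NC. FN1 was at 9.47 and 12.8 TPM in sh-PURB against 50.7 and 79.7 TPM in sh-NC, and VIM at 298 and 320 TPM against 340 and 342 TPM. SPARC, COL1A1, RUNX2, THY1 and CD44 overlapped between groups. ALPL and COL1A2 stayed below 1 TPM in every library. Markers of epithelial cells summed to 5.47 to 7.56 TPM, of leukocytes to 3.23 to 6.35, of muscle to 3.27 to 5.46 and of endothelium to at most 0.848. Of the muscle markers, TNNT2 was at 2.18 and 2.88 TPM in sh-PURB against 0.267 and 0.102 TPM in sh-NC, and MB was at 0.748 and 1.87 TPM against 2.72 and 2.83 TPM. CKM, MYH7 and ACTN2 stayed below 1 TPM in every library, and the part of these markers in the results was not tested.

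Most respiratory chain transcripts were slightly more abundant in sh-PURB cells, by differences that single genes did not carry past the test. Of the 119 members, 106 reached 1 TPM in at least 2 libraries and were tested. The limma fit over all 14269 tested genes called 0 of them at an adjusted p under 0.05, where it called 0.287% of all genes, 0.0841% higher and 0.203% lower. At an unadjusted limma p under 0.05, 14 members were higher and 0 were lower, and the same rule took 5.77% of all genes as higher and 9.53% as lower. With 1 library left out the count of 14 was 3 (sh-PURB replicate 1), 21 (sh-PURB replicate 2), 6 (sh-NC replicate 1) or 4 (sh-NC replicate 2). It was 23 with the replicate block and 41 with recomputed TPM. The share of all genes at this limma p, in either direction, moved too. It was 22.2% with the block and 16.8% with recomputed TPM, against 15.3% as reported. In 87 of the 106 the difference was above 0, with a median of 0.18 on the log2(TPM + 1) scale. Over all tested genes 41.6% were above 0 and the median was -0.06, and over the protein-coding ones 41.1% were. The 2 sh-PURB libraries exceeded both controls for 51 members and were under both for 7, against 18.6% and 29.3% of all tested genes. The summed level of all 119 members was 6163 and 5555 TPM in sh-PURB, against 5358 and 5093 TPM in sh-NC, a ratio of means of 1.12. In bulk RNA, a change in the cells present and a change in RNA per cell cannot be told apart.

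The members' median depended on the libraries used and on scaling. Its distance from the median of all tested genes was 0.24 as reported, and 0.10 to 0.32 with 1 library left out. Without sh-PURB replicate 1 the members' median was 0.09, with 76 of 106 above 0, and that of all genes was -0.01. Without sh-PURB replicate 2 these medians were 0.21 and -0.11. They were 0.17 and -0.10 without sh-NC replicate 1, and 0.14 and -0.02 without sh-NC replicate 2. Rescaling moved all genes together. When TPM was recomputed with abundant RNAs and mitochondrial genes removed, the median over all genes moved to 0.07 and that of the members to 0.31. Sh-PURB replicate 1 was above sh-PURB replicate 2 for 77.4% of tested members but for 38.8% of all tested genes. The controls showed the same tilt, with sh-NC replicate 1 above sh-NC replicate 2 for 67.9% of members and 39% of all genes. The members thus varied together between libraries of 1 group as well as between groups.

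**Figure D1:**
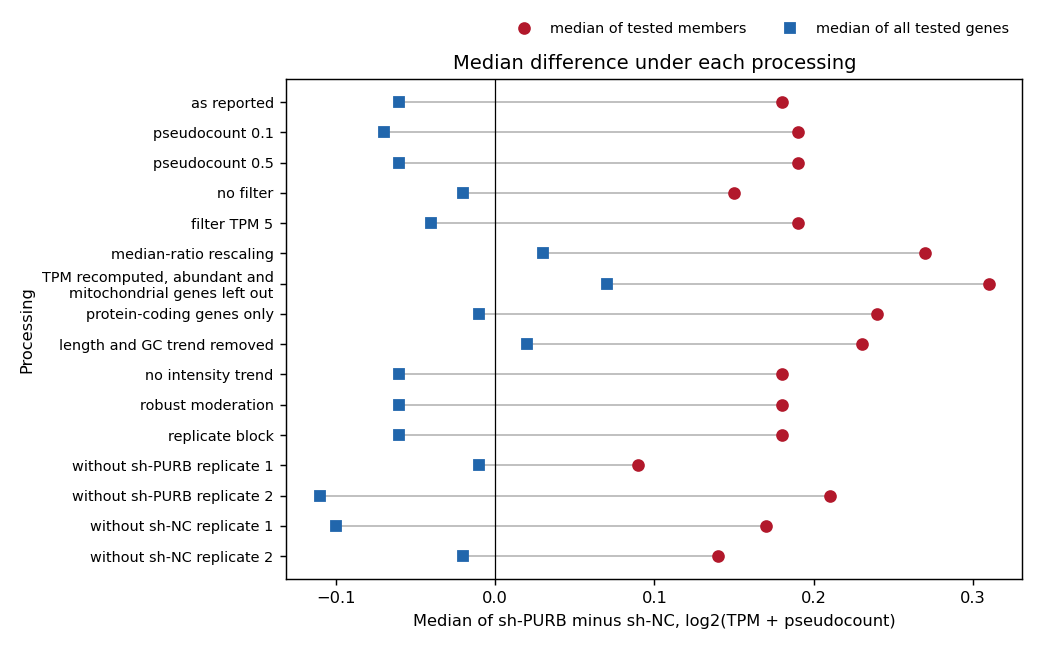
Median difference, sh-PURB minus sh-NC on the log2 scale (horizontal axis), of the tested respiratory chain genes (circles) and of all tested genes (squares) under each processing (rows). The circles lie to the right of the squares in every row, and the distance is shortest without sh-PURB replicate 1, where the medians are 0.09 and -0.01.

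A refit of the protein-coding genes by themselves, brought to 1 sum per library, held 103 tested members. Of these 96 were above 0 (48% of the genes in that fit) and 28 were higher at an unadjusted limma p under 0.05 (8.18% of genes), with 0 lower. It called 1 member, ATP5MC1, as higher and 0 as lower, against 3.48% of genes called in either direction and 1.33% called higher. The members were more abundant and shorter than other coding genes: the 101 tested members that are no antisense, divergent or read-through genes had a median of 37.7 TPM and a median transcript length of 672 bases, against 7.34 TPM and 998 bases for all tested protein-coding genes. Among the 2571 other coding genes with a mean of at least 10 TPM and a median transcript length of up to 900 bases, limits chosen after the members' values were seen, the median difference was -0.02 and 46.6% lay above 0. Over all 11824 other tested coding genes these were -0.06 and 40.7%. In sh-PURB, replicate 1 exceeded replicate 2 for 51% of the 2571 genes and 39.9% of the 11824. In sh-NC these shares were 43.3% and 39.1%.

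**Figure D2:**
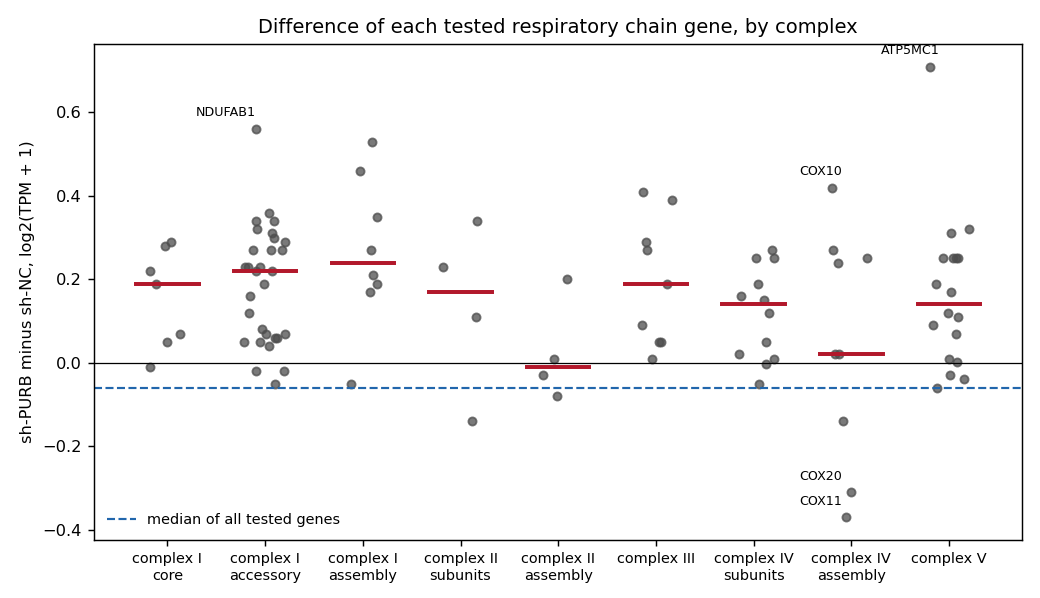
Difference of each tested respiratory chain gene, sh-PURB minus sh-NC on the log2(TPM + 1) scale (vertical axis), grouped by complex and role (horizontal axis). Each point is a gene, red bars are group medians and the dashed line is the median of all tested genes at -0.06; the bars lie between -0.01 (complex II assembly) and 0.24 (complex I assembly).

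Complex I transcripts were mostly higher in sh-PURB, among the core and the accessory subunits. All 37 nuclear subunit genes in the table were tested and 33 lay above 0, with a median of 0.22. Both sh-PURB libraries exceeded both controls for 21 and lay below them for 0, against 18.6% and 29.3% of all tested genes. The summed level of the 37 genes was 1779 and 1634 TPM in sh-PURB, against 1512 and 1477 TPM in sh-NC. With each rescaling or refit, and without any 1 library, the medians of the core and accessory groups stayed above 0, the lowest being 0.09 for the core without sh-NC replicate 1 and 0.13 for the accessory group without sh-PURB replicate 1.

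The 7 core subunits carry the flavin and the iron-sulfur clusters that take electrons from NADH to coenzyme Q. Their median was 0.19 and 6 lay above 0. NDUFV1, the flavin-binding subunit that oxidises NADH, was at 48.7 and 55.4 TPM in sh-PURB against 42.4 and 42.6 TPM in sh-NC, a difference of 0.28 (SE 0.111, limma adjusted p = 0.329). NDUFS7 and NDUFS8, which hold iron-sulfur clusters near the coenzyme Q site, differed by 0.29 and 0.22. NDUFS7 was at 14.1 and 15.4 TPM in sh-PURB against 12.6 and 11.3 TPM in sh-NC. For these 3 genes the groups did not overlap. Sh-PURB replicate 1 exceeded replicate 2 for only 3 of the 7 core genes, a lower share than among the accessory subunits (25 of 30), a difference that was not tested. NDUFS1, the large iron-sulfur subunit, was at 31.6 and 30.6 TPM in sh-PURB against 31.2 and 31.4 TPM in sh-NC, and NDUFV2, the most abundant core transcript, was at 81.8 and 77 TPM against 78.6 and 75 TPM. The groups overlapped for both.

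The 30 accessory subunits surround the core and are needed for its assembly and stability. Their median was 0.22, 27 lay above 0 and 17 had groups that did not overlap, all of them higher. Of all tested genes, 18.6% did so on the higher side and 29.3% on the lower. NDUFAB1, the mitochondrial acyl carrier protein, which also serves fatty acid and iron-sulfur cluster synthesis (chromosome 16, 23581002 to 23596356, minus strand, GRCh38), had the greatest difference. It stood at 40.3 and 31.6 TPM in sh-PURB against 24.1 and 23.6 TPM in sh-NC, a ratio of 1.51 and a difference of 0.56 (SE 0.148, limma adjusted p = 0.188). Each sh-PURB library was above each control. Without sh-PURB replicate 1 the difference was 0.39.

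NDUFB8, a membrane-arm subunit, was at 67.8 and 57.1 TPM in sh-PURB against 50.4 and 47.3 TPM in sh-NC (difference 0.34, SE 0.124). NDUFA9, at the joint of the membrane arm and the matrix arm, was at 51.2 and 54.5 TPM against 45.2 and 40.6 TPM (difference 0.30, SE 0.109). NDUFA3 was at 50.1 and 43.8 TPM in sh-PURB against 33.2 and 39.6 TPM in sh-NC (difference 0.36, SE 0.137). All 3 were at an unadjusted p under 0.05, with limma adjusted p-values of 0.299 to 0.321. NDUFB9, the most abundant accessory transcript, was at 181 and 149 TPM in sh-PURB against 146 and 134 TPM in sh-NC. NDUFA10, which had the lowest difference of the accessory subunits, was at 18.4 and 21.3 TPM in sh-PURB against 19.8 and 21.3 TPM in sh-NC, and its difference of -0.05 was above 0 under both rescalings.

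The complex I assembly factors of the NDUFAF family had a median of 0.24, with 7 of 8 above 0. NDUFAF2, a chaperone that binds a late assembly intermediate, was at 21.6 and 16.6 TPM in sh-PURB against 13.8 and 12 TPM in sh-NC (difference 0.53, SE 0.171, limma adjusted p = 0.257). NDUFAF8, which acts with NDUFAF5 in assembly, was at 36.9 and 30.2 TPM in sh-PURB against 25.5 and 22.6 TPM in sh-NC (difference 0.46, SE 0.144, limma adjusted p = 0.246). The groups did not overlap for either gene. NDUFAF4 rested on 1 library: it was at 13.1 and 8.26 TPM in sh-PURB against 8.45 and 7.52 TPM in sh-NC, and its difference of 0.35 was 0.05 without sh-PURB replicate 1. NDUFAF3 was at 22.4 and 22.6 TPM in sh-PURB against 24 and 22.6 TPM in sh-NC.

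**Figure D3:**
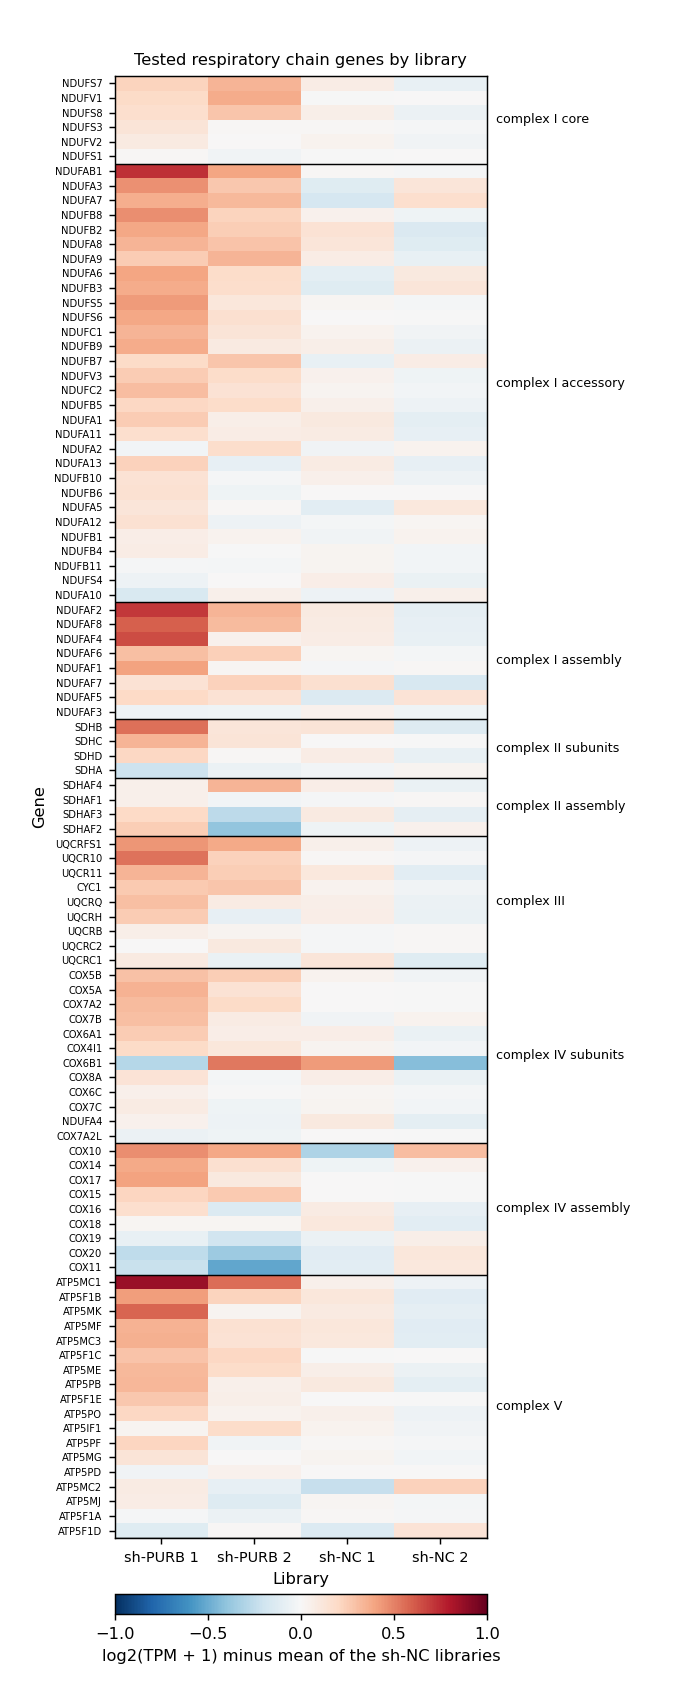
Tested respiratory chain genes (rows, grouped by complex and role) in the 4 libraries (columns), as log2(TPM + 1) minus the mean of the sh-NC libraries. Red in the 2 sh-PURB columns marks higher levels; the sh-PURB 1 column is redder than sh-PURB 2 for most genes, and COX6B1 differs between libraries of the same group.

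Complex II is encoded wholly in the nucleus and is also an enzyme of the tricarboxylic acid cycle. Its 4 subunits differed in direction. SDHB, the iron-sulfur subunit, was at 43.4 and 31.9 TPM in sh-PURB against 32 and 26.7 TPM in sh-NC, so the groups overlapped (difference 0.34, SE 0.187, limma adjusted p = 0.464). This difference ran from 0.12 to 0.55 when 1 library was left out. SDHC, a membrane anchor, was at 23.2 and 19.9 TPM in sh-PURB against 18.2 and 18.1 TPM in sh-NC, and SDHD, the other anchor, was at 47.5 and 41.3 TPM against 43.2 and 38.8 TPM. SDHA, the flavoprotein that oxidises succinate, was the one subunit with both sh-PURB libraries below both controls. It stood at 41.4 and 45.9 TPM in sh-PURB against 47 and 48.9 TPM in sh-NC (difference -0.14, SE 0.106, limma adjusted p = 0.613), and this difference was 0.01 with recomputed TPM. The median of the 4 subunits was 0.17, and 0.07 without sh-PURB replicate 1. Their summed level was 155 and 139 TPM in sh-PURB against 140 and 133 TPM in sh-NC.

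The 4 complex II assembly factors had a median of -0.01, which was 0.13 when sh-PURB replicate 2 was left out and -0.15 when replicate 1 was. SDHAF2, which helps attach the flavin to SDHA, was at 12 and 7.35 TPM in sh-PURB against 9.66 and 10.3 TPM in sh-NC. SDHAF4, which binds the flavinylated SDHA, was at 3.84 and 4.92 TPM in sh-PURB against 3.88 and 3.47 TPM in sh-NC. The groups overlapped for all 4 genes, SDHAF1 and SDHAF3 included.

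All 9 tested genes of complex III lay above 0, with a median of 0.19, and the groups did not overlap for 6 of them, all higher. Of all tested genes, 18.6% had both sh-PURB libraries above both controls and 29.3% had them below. The complex III median was 0.10 without sh-PURB replicate 1. The summed level of complex III was 770 and 684 TPM in sh-PURB against 668 and 622 TPM in sh-NC. The electron-carrying subunits were among the higher ones. UQCRFS1, the Rieske iron-sulfur protein (chromosome 19, 29205321 to 29213541, minus strand, GRCh38), was at 16.6 and 15.8 TPM in sh-PURB against 12.4 and 11.5 TPM in sh-NC (difference 0.41, SE 0.121, limma adjusted p = 0.23). Its 3 dropped pseudogene rows summed to 4.92 and 4.09 TPM in sh-PURB against 2.18 and 2.26 TPM in sh-NC, which is 19.3% of the TPM of the gene and its copies, so reads may be split between them and the gene's own value is uncertain. No other member had dropped copies above 10% of its family's TPM.

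CYC1, cytochrome c1, was at 112 and 113 TPM in sh-PURB against 95.6 and 90.6 TPM in sh-NC (difference 0.27, SE 0.089, limma adjusted p = 0.263). UQCR10, a small subunit that contacts cytochrome c1, was at 89.8 and 72.2 TPM in sh-PURB against 61.6 and 60.9 TPM in sh-NC (difference 0.39, SE 0.133, limma adjusted p = 0.278). UQCR11 was at 30 and 28.1 TPM in sh-PURB against 25.4 and 21.7 TPM in sh-NC. The other members differed less. UQCRC1 was at 81.2 and 72.6 TPM in sh-PURB against 82.9 and 70 TPM in sh-NC, UQCRC2 differed by 0.05, and their groups overlapped. UQCRB, a small subunit, differed by 0.05, and its groups did not overlap. UQCRH, the hinge protein, was at 164 and 130 TPM in sh-PURB against 144 and 131 TPM in sh-NC. Its intronless copy UQCRHL stayed below 0.2 TPM in every library and was not tested.

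Known regulators of respiratory chain genes bind short motifs in their promoters, among them NRF1, the ETS factor GABPA and YY1. The promoters of UQCRFS1, UQCR10 and UQCRC1 are shown because they are the complex III genes that hold both an NRF1 and a YY1 motif, while their differences were 0.41, 0.39 and 0.01. NDUFA9 of complex I also holds both. That of ATP5MC1, the gene of the ATP synthase c subunit with the greatest difference of all complex subunits, is shown because it holds none of the motifs searched. This does not set it apart, since many other members hold none, among them NDUFAB1 (difference 0.56) and NDUFA10 (difference -0.05). The promoters shown are RefSeq promoters on GRCh38.p14, from 250 bases before to 50 bases after the gene start. They are printed 5′ to 3′ on the gene's strand, with capitals marking the motifs. UQCRFS1 lies at chr19:29213102-29213401 (minus strand), UQCR10 at chr22:29767119-29767418 (plus strand), UQCRC1 at chr3:48609597-48609896 (minus strand) and ATP5MC1 at chr17:48892537-48892836 (plus strand).
UQCRFS1: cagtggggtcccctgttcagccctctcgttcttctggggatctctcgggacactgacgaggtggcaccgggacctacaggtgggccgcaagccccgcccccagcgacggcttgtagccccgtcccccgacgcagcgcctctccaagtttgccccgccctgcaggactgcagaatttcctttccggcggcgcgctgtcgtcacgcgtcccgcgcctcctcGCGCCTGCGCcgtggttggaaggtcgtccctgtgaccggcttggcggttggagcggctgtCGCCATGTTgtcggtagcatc
UQCR10: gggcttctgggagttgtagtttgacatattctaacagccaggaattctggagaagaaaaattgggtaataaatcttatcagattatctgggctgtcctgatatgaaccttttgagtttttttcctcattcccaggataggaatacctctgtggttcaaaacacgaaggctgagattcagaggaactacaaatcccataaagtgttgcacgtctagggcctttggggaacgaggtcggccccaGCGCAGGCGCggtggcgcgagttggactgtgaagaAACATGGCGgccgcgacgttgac
UQCRC1: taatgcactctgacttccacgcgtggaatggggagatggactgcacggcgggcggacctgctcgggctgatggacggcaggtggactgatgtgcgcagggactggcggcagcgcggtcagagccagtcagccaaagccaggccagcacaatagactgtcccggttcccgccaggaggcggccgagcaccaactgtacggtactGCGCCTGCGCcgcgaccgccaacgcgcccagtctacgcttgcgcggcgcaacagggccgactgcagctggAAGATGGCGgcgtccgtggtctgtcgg
ATP5MC1: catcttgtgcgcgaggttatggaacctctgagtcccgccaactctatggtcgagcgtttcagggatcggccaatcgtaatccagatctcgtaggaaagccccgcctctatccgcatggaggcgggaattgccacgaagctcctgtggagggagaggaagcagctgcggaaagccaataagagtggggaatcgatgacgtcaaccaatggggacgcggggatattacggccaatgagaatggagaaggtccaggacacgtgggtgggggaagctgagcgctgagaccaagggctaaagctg

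A promoter was at hand for 85 of the 101 tested members that are no antisense, divergent or read-through genes, and motifs were searched on both strands as plain letters. The NRF1 motif, GCGCA followed by any base and GCGC, was found in 21 (24.7%), against 12.2% of 9675 tested protein-coding genes and 6.28% of all 27305 promoters. The YY1 motif AANATGGCG was found in 18 (21.2%), against 7.22% and 3.37%. The ETS motif CCGGAAG was found in 26 (30.6%), against 20.3% and 10.7%. The median difference was 0.17 for members with and 0.16 for members without the NRF1 motif, 0.15 with and 0.17 without the ETS motif, and 0.25 with and 0.15 without the YY1 motif. No motifs overlap in the promoters shown. The transcripts of the factors themselves gave limma adjusted p-values between 0.368 and 0.995. NRF1 was at 3.19 and 4.55 TPM in sh-PURB against 3.37 and 4.29 TPM in sh-NC. GABPA was at 5.92 and 7.1 TPM in sh-PURB against 7.13 and 8.16 TPM in sh-NC. YY1 was at 15.2 and 16.7 TPM in sh-PURB against 19.7 and 19.2 TPM in sh-NC. NRF1 overlapped between groups, while GABPA and YY1 were lower in both sh-PURB libraries.

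Complex IV had a median of 0.14 over 12 tested subunit and associated genes, of which 10 lay above 0. The median was 0.05 when sh-NC replicate 2 was left out, 0.07 when sh-PURB replicate 1 was, and 0.04 with no filter on low values. Their summed level was 1436 and 1328 TPM in sh-PURB against 1312 and 1249 TPM in sh-NC. COX5B, a matrix-side subunit, was at 115 and 111 TPM in sh-PURB against 96.2 and 91.2 TPM in sh-NC (difference 0.27, SE 0.09, limma adjusted p = 0.274). COX5A, another matrix-side subunit, was at 59.9 and 52 TPM in sh-PURB against 47.1 and 46.8 TPM in sh-NC (difference 0.25). COX7A2, an isoform not limited to muscle, was at 164 and 150 TPM in sh-PURB against 132 and 131 TPM in sh-NC (difference 0.25, SE 0.0914, limma adjusted p = 0.302). The groups did not overlap for these 3 genes. COX4I1 was at 135 and 128 TPM in sh-PURB against 120 and 116 TPM in sh-NC, and COX6A1 at 169 and 148 TPM against 148 and 135 TPM.

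The most abundant transcripts of complex IV were nearly equal between groups. COX6C was at 199 and 192 TPM in sh-PURB against 195 and 190 TPM in sh-NC. COX8A was at 195 and 174 TPM in sh-PURB against 185 and 169 TPM in sh-NC. COX7C differed by 0.01 (SE 0.0919). The groups overlapped for all 3. NDUFA4, named for complex I but now placed with complex IV, was at 78.6 and 73.5 TPM in sh-PURB against 81.4 and 71.3 TPM in sh-NC. COX7A2L, which links complexes III and IV in supercomplexes, was at 53.8 and 54.5 TPM in sh-PURB against 56.3 and 56 TPM in sh-NC, and its difference of -0.05 was above 0 under both rescalings. COX6B1 was at 4.21 and 8.14 TPM in sh-PURB against 7.53 and 3.72 TPM in sh-NC. This is the lowest level among the tested complex IV subunits, and the libraries of each group differed more from one another than the groups did.

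The isoforms of complex IV known from muscle, testis or lung were at or near 0. COX4I2, COX6A2 and COX7B2 were listed at 0 in every library, COX7A1 was listed above 0 only in sh-PURB replicate 2 (0.0337 TPM), and COX8C reached at most 0.175 TPM. COX6B2 was at 0.189 and 0.336 TPM in sh-PURB against 0.489 and 0.53 TPM in sh-NC. NDUFA4L2, a paralog of NDUFA4 known as a target of the hypoxia-inducible factor, was at 0.03 and 0.145 TPM in sh-PURB against 0.789 and 0.969 TPM in sh-NC. It stayed below 1 TPM in every library, so it was not tested, but the groups did not overlap.

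The complex IV assembly factors had a median of 0.02 over 9 genes, which was -0.06 when sh-NC replicate 2 was left out, 0.12 when sh-NC replicate 1 was, and 0.17 when sh-PURB replicate 2 was. Both sh-PURB libraries lay above both controls for COX10, COX14, COX15 and COX17, and below them for COX11, COX19 and COX20. Over all tested genes 18.6% lay above and 29.3% below, so 3 of 9 below is near the background. COX11, which delivers copper to the catalytic subunit COX1 (chromosome 17, 54951902 to 54968785, minus strand, GRCh38), was at 9.62 and 7.64 TPM in sh-PURB against 10.5 and 12.3 TPM in sh-NC (difference -0.37, SE 0.169, limma adjusted p = 0.39). COX20, a chaperone of the subunit COX2, was at 18.2 and 16.8 TPM in sh-PURB against 20.2 and 23.8 TPM in sh-NC (difference -0.31, SE 0.133, limma adjusted p = 0.36). Both stayed below 0 in each of the 15 alternatives, COX11 between -0.52 and -0.22 and COX20 between -0.42 and -0.17.

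COX10 and COX15, enzymes that make the heme A of complex IV, were on the higher side. COX15 was at 12.2 and 12.6 TPM in sh-PURB against 10.4 and 10.3 TPM in sh-NC (difference 0.24, SE 0.12). COX10 was at 3.51 and 3.28 TPM in sh-PURB against 1.65 and 3.05 TPM in sh-NC, and its difference of 0.42 was 0.12 without sh-NC replicate 1. COX17, a copper chaperone, was at 26 and 20.8 TPM in sh-PURB against 19.5 and 19.3 TPM in sh-NC. COX14 was at 13.5 and 11.5 TPM in sh-PURB against 9.85 and 10.5 TPM in sh-NC. COX16 was at 37.3 and 30 TPM in sh-PURB against 35 and 31.3 TPM in sh-NC, with overlapping groups.

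**Figure D4:**
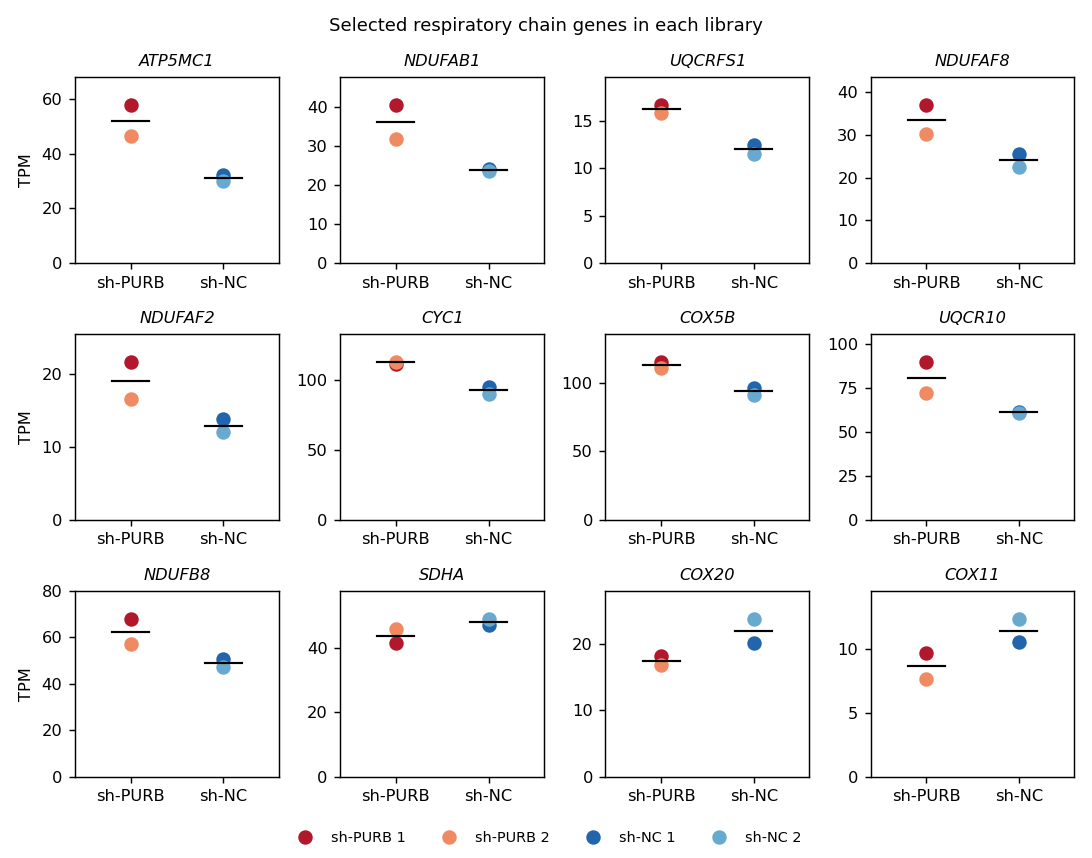
TPM (vertical axes, from 0) of 12 respiratory chain genes in each library, with sh-PURB left and sh-NC right; points are libraries and bars are group means (n = 2 each). In the first 9 panels both sh-PURB libraries lie above both controls, as for ATP5MC1 at 57.7 and 46.5 against 32.4 and 30.2 TPM, and in the last 3 (SDHA, COX20, COX11) they lie below. All 12 are genes whose groups do not overlap. Of the 106 tested members this held for 51 on the higher side and 7 on the lower, against 18.6% and 29.3% of all tested genes.

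The ATP synthase, complex V, held the member with the smallest p-value. ATP5MC1 encodes 1 of the 3 precursors of the c subunit, which forms the rotating membrane ring (chromosome 17, 48892765 to 48895871, plus strand, GRCh38). It stood at 57.7 and 46.5 TPM in sh-PURB against 32.4 and 30.2 TPM in sh-NC, a ratio of 1.66. Each sh-PURB library was well above each control. The difference was 0.71 (SE 0.14, limma adjusted p = 0.119), and it ran from 0.55 to 0.86 over the 15 alternatives, with adjusted p-values from 0.0353 to 0.407. With protein-coding genes alone it was 0.76 and passed the threshold (limma adjusted p = 0.0353).

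The other genes of the c subunit differed less. ATP5MC3 was at 95.8 and 82.5 TPM in sh-PURB against 80.1 and 69.3 TPM in sh-NC (difference 0.25, SE 0.129). ATP5MC2 was at 3.84 and 3.31 TPM in sh-PURB against 2.88 and 4.36 TPM in sh-NC, with overlapping groups. All 3 make the same mature protein and differ in the import sequence that is cut off. ATP5MC1 supplied 36.7% and 35.1% of their summed TPM in the sh-PURB libraries, against 28.1% and 29.1% in the sh-NC libraries. The sum itself was 157 and 132 TPM in sh-PURB against 115 and 104 TPM in sh-NC.

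Over the 18 tested complex V genes, 15 lay above 0 and the median was 0.14, but 0.05 without sh-PURB replicate 1. Their summed level was 1713 and 1509 TPM in sh-PURB against 1464 and 1356 TPM in sh-NC. Among the 5 subunits of the catalytic head, ATP5F1B, the catalytic beta subunit, was at 140 and 122 TPM in sh-PURB against 113 and 96.6 TPM in sh-NC (difference 0.32, SE 0.126, limma adjusted p = 0.335). ATP5F1C, the gamma subunit of the central shaft, was at 95.3 and 90 TPM in sh-PURB against 77.6 and 78.1 TPM in sh-NC (difference 0.25, SE 0.0907, limma adjusted p = 0.306). The groups did not overlap for either. ATP5F1A, the alpha subunit that alternates with beta in the head, was at 97.5 and 94.2 TPM in sh-PURB against 99.1 and 97.4 TPM in sh-NC. ATP5F1D, the delta subunit, was at 17.7 and 19.5 TPM in sh-PURB against 17.5 and 21.3 TPM in sh-NC.

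The 4 subunits of the peripheral stalk, which holds the head still, had a median of 0.11 and overlapping groups throughout. ATP5PB, the most abundant complex V transcript by mean TPM, was at 187 and 154 TPM in sh-PURB against 159 and 139 TPM in sh-NC. The 5 small membrane subunits had a median of 0.25. ATP5ME was at 108 and 97.8 TPM in sh-PURB against 89.8 and 82.5 TPM in sh-NC (difference 0.25, SE 0.105). ATP5IF1, the inhibitor that stops ATP hydrolysis by the enzyme, was at 73.9 and 82.6 TPM in sh-PURB against 74.5 and 70.6 TPM in sh-NC, with overlapping groups (difference 0.11).

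**Figure D5:**
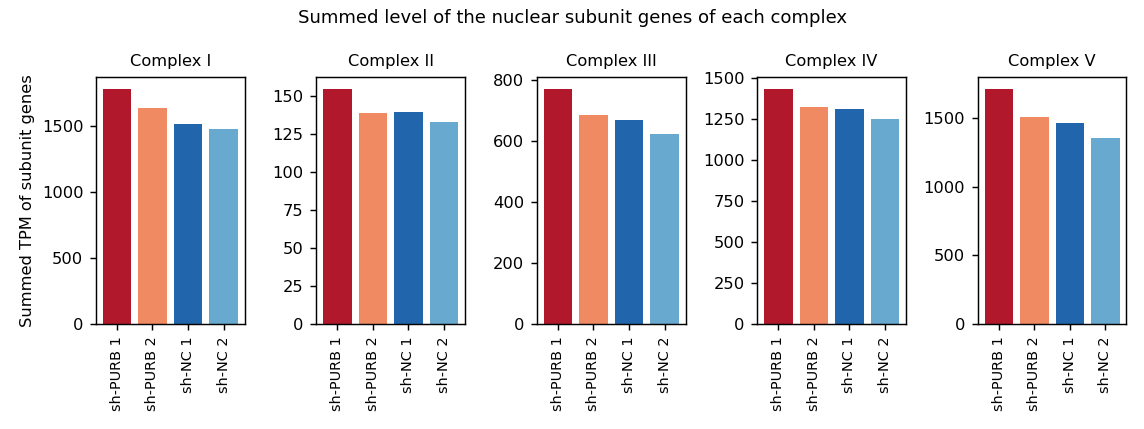
Summed TPM (vertical axes, from 0) of the nuclear subunit genes of complexes I to V in each of the 4 libraries. In complexes I, III, IV and V both sh-PURB bars stand above both sh-NC bars, as for complex I at 1779 and 1634 against 1512 and 1477 TPM; in complex II the second sh-PURB bar (139) is level with the first sh-NC bar (140).

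Of the 119 symbols, 9 were antisense, divergent or read-through genes, of which 5 were tested. NDUFC2-KCTD14, a read-through transcript over NDUFC2 and its neighbour on chromosome 11, was at 7.9 and 5.19 TPM in sh-PURB against 3.35 and 2.15 TPM in sh-NC (difference 1.01, SE 0.268, limma adjusted p = 0.193). NDUFC2 itself was at 93.9 and 83.7 TPM in sh-PURB against 77.5 and 74.2 TPM in sh-NC. The 2 genes share exons, so reads can be split between them and the read-through value is uncertain. NDUFA6-DT was at 1.43 and 1.31 TPM in sh-PURB against 1.53 and 2.42 TPM in sh-NC, and NDUFV2-AS1 at 1.14 and 0.992 TPM against 1.66 and 1.5 TPM. Both were below the controls in each sh-PURB library, and no source used here states whether counting used strand.

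Assembly factors whose symbols fall outside the naming rule had 34 of 43 members above 0 and a median of 0.12. The limma fit called 0 of them, where it called 0.287% of all genes. An unadjusted limma p under 0.05 held for 4 higher and 0 lower, against 5.77% and 9.53% of all genes. TIMMDC1, a complex I membrane-arm factor, was at 37.5 and 35.9 TPM in sh-PURB against 26.9 and 27.9 TPM in sh-NC (difference 0.41, SE 0.102, limma adjusted p = 0.177). TACO1, the translational activator of mitochondrial COX1, was at 8.39 and 8.15 TPM in sh-PURB against 6.02 and 5.79 TPM in sh-NC (difference 0.42, SE 0.133, limma adjusted p = 0.245). COA6, a copper-handling factor of complex IV, was at 17.6 and 14.4 TPM in sh-PURB against 12.3 and 11.5 TPM in sh-NC, and UQCC1, a complex III factor, at 17.1 and 17 TPM against 13.6 and 14 TPM. In each of these 4 genes the groups did not overlap.

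The mobile carriers differed among themselves. CYCS, cytochrome c, was at 90.4 and 70.8 TPM in sh-PURB against 64.9 and 60 TPM in sh-NC (difference 0.35, SE 0.147, limma adjusted p = 0.352). ETFB, a subunit of the flavoprotein that carries electrons from fatty acid oxidation, was at 19.9 and 25 TPM in sh-PURB against 29.8 and 33.6 TPM in sh-NC (difference -0.49, SE 0.152, limma adjusted p = 0.244). Over 17 carrier and coenzyme Q genes 11 lay above 0, with a median of 0.10, 0 called, and 0 higher and 1 lower at an unadjusted limma p under 0.05. Of all tested genes 0.287% were called, and 5.77% were higher and 9.53% lower at that unadjusted p.

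Of the 13 subunits encoded in the mitochondrial genome, 12 lay above 0 with a median of 0.31. The limma fit called 0, where it called 0.287% of all genes. By an unadjusted limma p under 0.05, 3 were higher and 0 lower, against 5.77% and 9.53% of all genes. MT-ATP6, a membrane subunit of complex V, was at 217 and 264 TPM in sh-PURB against 96.5 and 177 TPM in sh-NC (difference 0.87, SE 0.302, limma adjusted p = 0.282). MT-CO1, the catalytic subunit of complex IV, was at 1193 and 1298 TPM in sh-PURB against 1109 and 1527 TPM in sh-NC. The controls were far apart: the 13 genes summed to 6246 and 6773 TPM in sh-PURB against 5024 and 6608 TPM in sh-NC. Here sh-NC replicate 1 was below replicate 2 for all 13 genes, whereas the nuclear genes more often stood higher in sh-NC replicate 1.

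The tricarboxylic acid cycle, which feeds electrons into the chain, had 14 of 18 genes above 0 and a median of 0.19, with 0 called and, at an unadjusted limma p under 0.05, 2 higher and 2 lower. FH, fumarase, was at 35 and 32.7 TPM in sh-PURB against 25.9 and 27 TPM in sh-NC, and MDH2, malate dehydrogenase, at 82.4 and 78.1 TPM against 67.6 and 63.6 TPM. IDH2, the NADP-dependent isocitrate dehydrogenase, was at 7.41 and 12.2 TPM in sh-PURB against 15.7 and 18.5 TPM in sh-NC (difference -0.77, SE 0.248, limma adjusted p = 0.255). Among regulators of mitochondrial genes 7 of 13 lay above 0, 0 were called and 0 passed an unadjusted limma p under 0.05. Beside both lists, 0.287% of all tested genes were called, and 5.77% were higher and 9.53% lower at that unadjusted p. The coactivator PPARGC1A was at 0.317 and 1.04 TPM in sh-PURB against 0.539 and 1.35 TPM in sh-NC, and TFAM, which packages mitochondrial DNA, was at 37.1 and 28.7 TPM against 36 and 31.7 TPM.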

How the data were processed

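The authors deposited TPM values per gene for each library and as 1 joint table, which were equal in 158080 of 158080 values compared. Per the submitters' processing notes, bcl2fastq 2.19, kallisto 0.44.0, sleuth and DESeq2 were used, with the builds GRCh38 and GRCm38 and no role given for any. Strand use and annotation release are not given in the sources used here. Per the labels' protocols, RNA came from TRIzol extraction and libraries from TruSeq chemistry after ribosomal RNA removal. A row with a blank name, 0.921% to 1.66% of a library, was left out.

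Libraries were grouped by title. Genes at 1 TPM or more in at least 2 libraries were compared as log2(TPM + 1) in limma 3.58.1 (R 4.3.3), with empirical Bayes moderation, an intensity trend, 2 residual and 2.92 prior degrees of freedom, and Benjamini-Hochberg adjusted p-values across the 14269 genes tested, with a threshold of 0.05. On this scale low genes show less than their true fold, and no depth-based interval can be given. Ratios are of mean TPM. Members, gene lists, motifs and tests were chosen with earlier results of these data known. Named members were the isoform genes, those called, and per group up to 4 with the smallest p, the highest and lowest difference and the highest level, plus up to 3 per further list. COX7C, COX17, COX19, UQCRC2, UQCRB, COX7B2, ATP5F1A, NDUFC2, NDUFC2-KCTD14, NDUFA6-DT and NDUFV2-AS1 were named after their values were seen. A gene that the rule names is not reported here, though it stays in all counts. Gene positions came from GENCODE release 29. In 20 simulated data sets of 14269 genes with 200 changed, the fit called 20.7% of 2-fold and 84.4% of 4-fold changes, with 5.14% false calls. The simulated noise was drawn separately for each gene, and the lowest genes were never changed. Genes varied together in the real libraries, so these rates may not hold there. Alternatives were other pseudocounts, filters, scalings, limma settings, a length and GC trend, a replicate block and leaving out each library. Figures used Python 3.11.15 and matplotlib 3.10.9.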

Additional observations from a re-analysis of the deposited data

How the results depend on the processing

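Between libraries with the same replicate number the deviations from the group means correlated at 0.193 across 14269 genes, a single pair-wise check, and the labels give these numbers no meaning, so they were not taken as pairs. With the replicate block, 118 genes were called (41 higher, 77 lower) and 0 members. The count of 41 genes called over all genes was 0 with a pseudocount of 0.1, with no filter, without the intensity trend and without any 1 library (range 0 to 0). It was 121 with a filter at TPM 5, 84 with median-ratio rescaling and 84 with recomputed TPM (45.2% of them higher, against 29.3%), 415 with protein-coding genes only, 101 with the length and GC trend removed and 125 with robust moderation. The members called were 0 in every alternative but protein-coding genes only, where 1 was called. The median of all members was 0.27 with median-ratio rescaling and 0.31 with recomputed TPM, and 0.09 to 0.21 without any 1 library. PURB was -0.91 with protein-coding genes only (limma adjusted p = 0.0313) and -1.08 to -0.81 without any 1 library.

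Of 57 named members, 17 had a difference that changed sign under an alternative, and the cause was not tested. As reported, the differences of these 17 ran from -0.14 (SDHA) to 0.12 (COX6B1). With median-ratio rescaling and then recomputed TPM the values were 0.05 and 0.09 for ATP5F1D, 0.06 and 0.10 for COX7A2L, NDUFA10 and NDUFAF3, 0.11 and 0.15 for NDUFA4, 0.10 and 0.14 for NDUFS1, 0.02 and 0.06 for SDHAF2 and 0.08 and 0.12 for SDHAF3. SDHA was 0.01 with recomputed TPM. With protein-coding genes only they were 1.3e-05 for NDUFA10, 0.05 for NDUFA4, 0.0036 for NDUFAF3, 0.04 for NDUFS1 and 0.02 for SDHAF3. With the length and GC trend removed they were 0.07 for ATP5F1D, 0.08 for NDUFA4, 0.07 for NDUFAF3, 0.08 for NDUFS1 and 0.03 for SDHAF3. Without any 1 library the differences ran from -0.19 to 0.08 for ATP5F1D, -0.23 to 0.24 for ATP5MC2, -0.14 to 0.17 for COX16, -0.31 to 0.55 for COX6B1, -0.01 to 0.04 for COX6C, -0.03 to 0.14 for COX8A, -0.15 to 0.05 for NDUFA10, -0.10 to 0.09 for NDUFA4, -0.03 to 0.01 for NDUFS1, -0.03 to 0.05 for SDHAF1, -0.40 to 0.24 for SDHAF2, -0.26 to 0.21 for SDHAF3, -0.11 to 0.13 for UQCRC1 and -0.08 to 0.25 for UQCRH. With 2 libraries a group and unknown depth, the fit can miss differences of the size seen in most members.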
